A study of Homo sapiens with 2 samples.

Results

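Matrix metalloproteinases (MMPs) and their tissue inhibitors (TIMPs) were examined in cultures of SW48, an established cell line from a human colorectal cancer. The cells had been transfected 3 days earlier with a short double-stranded RNA (siRNA) that targets the mRNA of the zinc finger transcription factor YY1, or with a negative control siRNA. The members were fixed by name, as the genes MMP1, MMP2, MMP7, MMP9, MMP14, MMP15, MMP24, TIMP1, TIMP2 and TIMP3. Of these 10 genes, 9 had a named row among the 17687 named genes of the deposited table, each with 1 probe set, and TIMP2 was not analysed here. The siControl group is a culture that received the negative control siRNA and the siYY1 group a culture that received a single YY1 siRNA, each at 5 nmol/L with the same lipid reagent. Total RNA was measured on whole-transcript GeneChips. There was 1 array per group, so no spread between replicates exists and no test was possible. Differences are given in log2 units as siYY1 minus siControl and compare these arrays only. The comparison asked which genes differ in expression when YY1 is depleted. YY1 mRNA was not analysed here, so the depth of the knockdown was not checked.

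MMPs are zinc-dependent endopeptidases that cleave collagens, laminins, growth factor precursors and cell adhesion proteins. They are made as inactive proenzymes and become active once the propeptide is removed. The secreted members are released into the matrix, whereas the membrane-type members stay anchored to the cell surface. TIMPs bind the active site and block it, and MMP14 can use TIMP2 as a bridge to capture and activate the proenzyme of MMP2. In colorectal tumours, MMP7 is made mainly by the epithelial cancer cells, while much of MMP2 and TIMP3 comes from stromal cells, which a pure cell line lacks.

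Of the 9 members, 3 were bright, meaning that the average of their 2 values reached the median over all named genes (log2 7.54). These were MMP14, MMP15 and TIMP1, and each of them lay above this value on both arrays. The other 6 members were dim on both arrays, and no detection call shows whether they exceed background. MMP14 was the single bright member past the rule of size used in place of a test, a difference of at least 1.5-fold, and it was higher in siYY1. Among all 8844 bright genes, 3.04% passed this rule upward, higher in siYY1, and 3.78% passed it downward. With 3 bright members, 1 count cannot be read against that share. Among the dim members, MMP1 and TIMP3 were past 1.5-fold, both higher in siYY1, as were 4.92% of the 8843 dim genes, with 4.03% past it and lower. No member was 1.5-fold lower, bright or dim.

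**Figure D1:**
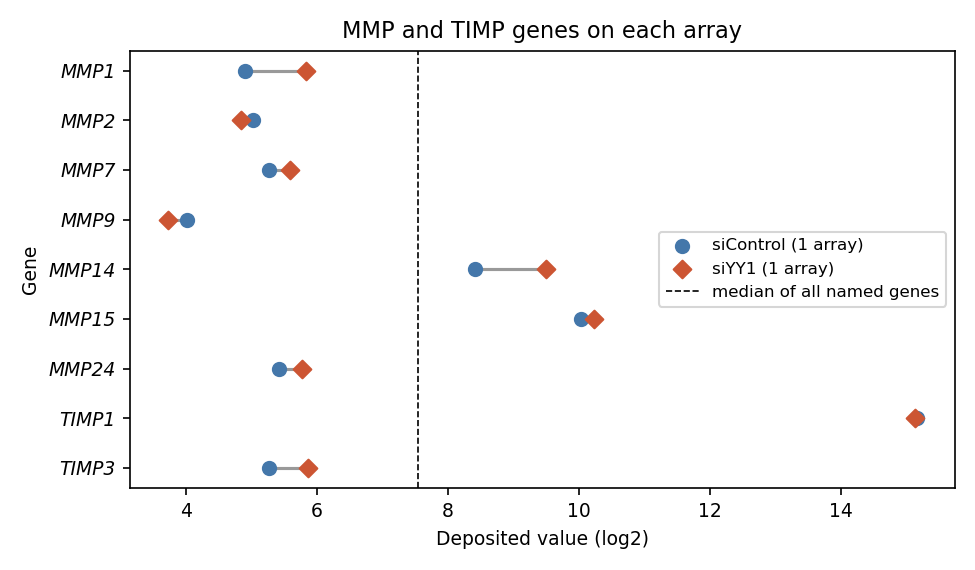
Deposited log2 value (horizontal axis) of each MMP and TIMP gene (vertical axis) on the siControl array (circles) and the siYY1 array (diamonds), with the median of all named genes as a dashed line at 7.54. MMP14, MMP15 and TIMP1 lie to the right of the line on both arrays, and MMP14 and MMP1 have the longest connecting lines.

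Among the membrane-type enzymes, MMP14 (MT1-MMP), which cleaves fibrillar collagen at the cell surface, was at 8.41 in siControl and 9.50 in siYY1. The siYY1 array was the higher by 1.09, or 2.13-fold. Of the 8844 bright genes, 22 had a larger positive difference, so MMP14 belonged to the upper 0.26% of them. This is a rank and not a test, because the members were chosen with earlier results of these data known. A stricter filter, at the 75th percentile of named genes, would no longer count MMP14 as bright, at the same difference of 1.09. MMP15 (MT2-MMP), a close relative with an overlapping range of substrates, was at 10.02 in siControl and 10.23 in siYY1. Its difference of 0.21 (1.16-fold) lay well inside the bulk of bright genes, of which 22.2% had a positive difference at least as large. The change of MMP14 exceeded that of MMP15 by 0.88 on the log2 scale, a comparison of differences and not of levels. MMP24 (MT5-MMP), known mainly from the nervous system, was dim at 5.42 in siControl and 5.77 in siYY1. Its difference was 0.35, and 15.7% of dim genes had a positive difference of this size or more. All 3 membrane-type members had positive differences, as did 4454 of the 8844 bright genes and 4743 of the 8843 dim genes. Of the 3, only MMP14 was past 1.5-fold.

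The upstream sequence of MMP14 is shown beside that of MMP15, its bright relative, because the first was past 1.5-fold and the second was not. MMP7 is shown as the secreted, dim contrast and TIMP1 as the bright inhibitor whose value hardly differed. The sequences are the 250 bases before the annotated start, from RefSeq (GRCh38.p14), written 5′ to 3′ on the strand of the gene. The windows are chr14:22836335-22836584 on the plus strand for MMP14, chr16:58025504-58025753 on the plus strand for MMP15, chr11:102530748-102530997 on the minus strand for MMP7 and chrX:47582186-47582435 on the plus strand for TIMP1. Capitals mark every match, on either strand, to the letters of 6 motifs. These are AP-1 (TGANTCA), YY1 (CCATNTT), PEA3/ETS (AGGAAG), TCF/LEF (CTTTGNT), the GC box (GGGCGG, read as CCGCCC on the other strand) and the TATA box (TATAAA).
MMP14: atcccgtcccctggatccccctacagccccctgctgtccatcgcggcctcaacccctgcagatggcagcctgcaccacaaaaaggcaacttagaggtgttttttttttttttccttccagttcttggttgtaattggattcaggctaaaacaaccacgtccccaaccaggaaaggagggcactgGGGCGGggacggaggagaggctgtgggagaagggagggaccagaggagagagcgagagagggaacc
MMP15: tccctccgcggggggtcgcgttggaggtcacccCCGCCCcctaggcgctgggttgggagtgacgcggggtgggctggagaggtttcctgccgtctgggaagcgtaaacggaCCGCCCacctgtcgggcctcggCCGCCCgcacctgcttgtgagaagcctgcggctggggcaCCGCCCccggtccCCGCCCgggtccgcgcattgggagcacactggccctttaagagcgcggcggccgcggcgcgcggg
MMP7: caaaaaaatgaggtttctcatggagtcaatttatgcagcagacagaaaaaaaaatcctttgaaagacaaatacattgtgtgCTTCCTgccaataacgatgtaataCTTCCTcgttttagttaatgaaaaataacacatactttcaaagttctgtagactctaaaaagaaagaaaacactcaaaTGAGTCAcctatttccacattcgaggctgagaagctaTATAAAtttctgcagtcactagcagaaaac
TIMP1: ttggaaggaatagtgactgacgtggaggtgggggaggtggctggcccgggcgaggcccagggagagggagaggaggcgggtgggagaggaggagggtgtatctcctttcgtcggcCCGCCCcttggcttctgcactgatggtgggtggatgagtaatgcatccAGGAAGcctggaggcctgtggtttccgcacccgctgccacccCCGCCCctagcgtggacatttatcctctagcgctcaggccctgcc

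MMP14 held a single GC box, 66 to 61 bases before the start, and none of the other 5 motifs. MMP15 held 5 GC boxes, all read on the opposite strand. MMP7 differed from both in having no GC box, but a TATA box 30 to 25 bases before the start, an AP-1 match 67 to 61 bases before it and 2 PEA3/ETS matches. Its window was also the poorest in G and C of the 6 found, at 33.6%, against 56.8% for MMP14, 74.8% for MMP15 and a median of 58% over all 35116 windows. TIMP1 held 2 GC boxes and 1 PEA3/ETS match. Of the 6 members with a window in the table, 5 (MMP14, MMP15, MMP24, TIMP1 and TIMP3) held a GC box, as did 42.6% of all windows. An AP-1 match was present in 6.57% of all windows, a PEA3/ETS match in 28.7% and a TATA box in 10.7%. No member window held the YY1 letters, which 11.6% of all windows did, or the TCF/LEF letters, which 13.2% did. The absence of a match says only that these letters are not in this stretch. For TCF/LEF the letters searched were narrow. The MMP7 window holds CTTTGAA on the strand of the gene and, read as TTCAAAG, on the other strand. These differ from CTTTGNT in the last letter and were not counted. The windows of MMP14, past 1.5-fold, and of MMP15, not past it, thus shared 1 kind of match and differed in its number. MMP1, MMP2, MMP9 and TIMP2 had no entry in the table.

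**Figure D2:**
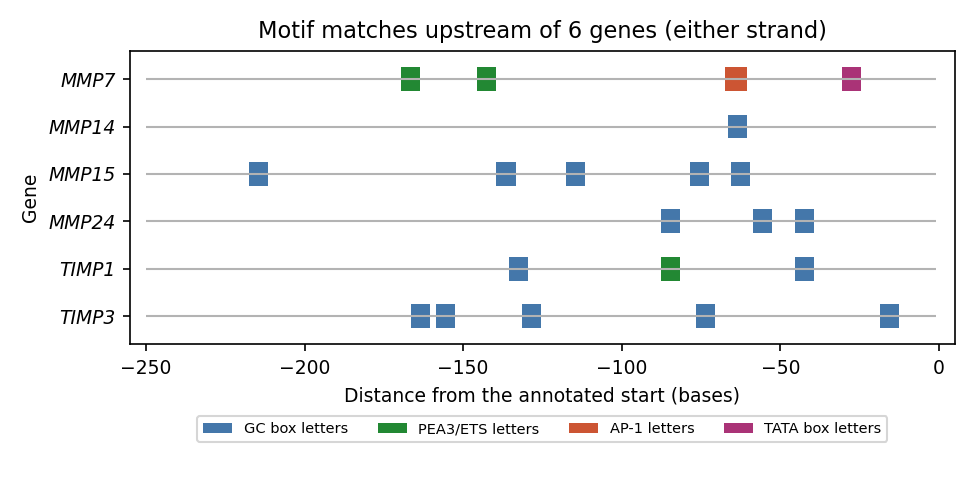
Motif matches on either strand in the 250 bases upstream of 6 MMP and TIMP genes, by distance from the annotated start in bases (horizontal axis), with 1 line per gene and coloured blocks for the matches. MMP7 carries the AP-1, PEA3/ETS and TATA matches and no GC box, whereas the other 5 genes carry between 1 and 5 GC boxes.

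All 4 secreted enzymes were dim on both arrays. MMP1, the interstitial collagenase, was at 4.91 in siControl against 5.84 in siYY1, which is a difference of 0.93 or 1.91-fold. Of the 8843 dim genes, 58 had a larger positive difference. Olfactory receptor genes, which are silent in most tissues, give a view of scatter at low values. None of 349 such genes had a positive difference as large as the 0.933 of MMP1, but the largest, 0.926, was close to it, and 37 of them (10.6%) lay past 1.5-fold in either direction. MMP1 stood at the upper end of what dim genes showed here, with a fold that is uncertain because neither value was shown to exceed background.

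MMP7 (matrilysin), which lacks the hemopexin domain of most family members and is a known target of beta-catenin in intestinal tumours, was at 5.26 in siControl and 5.59 in siYY1. The difference of 0.33 was exceeded by 1514 dim genes. MMP2 (gelatinase A), the enzyme whose proform MMP14 activates, was at 5.02 in siControl against 4.83 in siYY1, which is a difference of -0.18. MMP9 (gelatinase B), typical of neutrophils and macrophages, was at 4.01 in siControl against 3.72 in siYY1, which is a difference of -0.30. These differences were inside the bulk of dim genes, of which 24.6% had a negative difference at least as large as that of MMP2 and 16% as that of MMP9. The secreted members were divided in direction, with 2 higher and 2 lower in siYY1.

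Among the inhibitors, TIMP1 was bright, at 15.16 in siControl and 15.12 in siYY1. TIMP1 blocks most secreted MMPs but is a poor inhibitor of MMP14. Its difference of -0.04 was the smallest in size of the 9 members, and 44.1% of bright genes had a negative difference at least as large. TIMP3, which is bound to the matrix and also inhibits ADAM17, was dim at 5.27 in siControl and 5.86 in siYY1. Its difference of 0.59 passed the rule of 1.5-fold (0.58 on the log2 scale) by 0.01, and 419 dim genes had a larger positive one. It was under the rule after quantile normalization (0.55), median centring (0.58, before rounding just under it) and lowess centring (0.54). The shift of MMP14 relative to TIMP1 was 1.13 on the log2 scale, of which 1.09 was the difference of MMP14 itself.

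**Figure D3:**
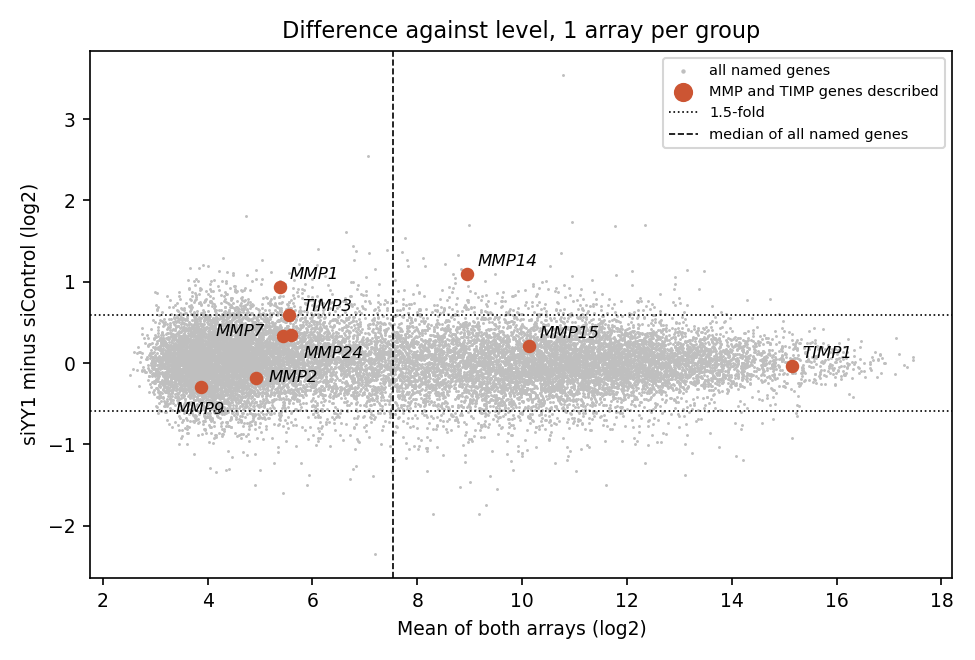
Difference between the arrays (siYY1 minus siControl, log2, vertical axis) against the mean of both arrays (log2, horizontal axis) for all named genes (grey) and the MMP and TIMP genes described (red), with dotted lines at 1.5-fold and a dashed line at the median of all named genes. MMP14 lies near the upper edge of the grey cloud, where 22 bright genes lie higher, MMP1 near the upper edge of the dim genes, and TIMP3 on the dotted line.

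The 3 named genes whose values on the arrays were nearest to those of MMP14, by Euclidean distance over 2 values, were AAMDC (8.38 in siControl and 9.50 in siYY1), DSTYK (8.48 and 9.43) and ZNF777 (8.33 and 9.40). With 2 arrays this is a likeness of level and difference only.

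The rest of the family was dim. Of 16 further MMP genes listed, 15 had a row, and none was bright or past 1.5-fold in either direction. Their median difference was 0.08, against 0.03 over all dim genes. The stromelysin MMP11 had the most negative difference (-0.56, from 6.46 to 5.89) and MMP25, a membrane-type enzyme of leukocytes, the most positive (0.53, from 4.68 to 5.21), both named after their values were seen. Over the 25 MMP and TIMP genes with a row, 22 were dim, 3 were past 1.5-fold and higher in siYY1, and none was past it and lower. Over all named genes, 3.98% were past 1.5-fold and higher and 3.9% past it and lower. Since 2 of these 3 genes were dim, their number says little about the family.

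MMP1 and MMP7 belong to a cluster of 9 neighbouring protein-coding genes, all of them MMPs, on chromosome 11, in the order MMP7, MMP20, MMP27, MMP8, MMP10, MMP1, MMP3, MMP12 and MMP13 in GRCh38.p14. All 9 were dim, between 3.68 and 5.26 in siControl and between 3.66 and 5.84 in siYY1. MMP1 was the single cluster gene past 1.5-fold. Its direct neighbours were MMP10, a stromelysin, with a difference of -0.05, and MMP3, also a stromelysin, with a difference of 0.16. Over the cluster, 6 differences were positive and 3 negative, ending with the collagenase MMP13 at -0.35. The difference of MMP1 was not seen at the genes beside it, which were chosen for their position. As these neighbours were dim and not shown to exceed background, a shared difference could have gone unseen there.

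Genes that act on MMPs or with them were described in 7 lists, which together held 73 distinct bright genes. Of these, 5 (6.85%) passed 1.5-fold with the higher value in siYY1 and 4 (5.48%) with the lower, beside 3.04% and 3.78% of all bright genes. Their median difference was 0.09, against 0.00 over all bright genes. The lists were written with earlier results of these data known, and such counts describe them and support nothing further.

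Among the activators, FURIN, the proprotein convertase that removes the propeptide of MMP14 inside the cell, was at 8.64 in siControl against 9.30 in siYY1, which is a difference of 0.66 or 1.58-fold. PLAUR, the receptor that focuses urokinase and so plasmin at the cell surface, went the other way, from 11.45 to 10.31, a difference of -1.14, or 2.20-fold lower. The urokinase gene PLAU itself differed by -0.15 (8.61 and 8.46). BSG, also called EMMPRIN for its ability to induce MMPs in neighbouring cells, differed by 0.22 (15.73 and 15.95). Of 14 activators with a row, 7 were bright, 1 of them past 1.5-fold higher and 1 past it lower. The remaining bright activators, PCSK7 (0.04), PLAT (0.13) and ST14 (-0.09), lay within 1.5-fold. MMP14 and FURIN were thus both higher in siYY1 and PLAUR lower, and a link between these differences was not tested.

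Among other inhibitors and clearance receptors, 5 of 13 genes with a row were bright. LRP1, an endocytic receptor that removes MMPs and MMP-TIMP complexes from the cell surface, was at 9.08 in siControl against 9.95 in siYY1, which is a difference of 0.87 or 1.82-fold. The other 4 lay within 1.5-fold, among them the serine protease inhibitor SERPINE2 (0.23) and the cysteine protease inhibitor CST3 (-0.18). RECK, a membrane-anchored inhibitor of MMP14, MMP2 and MMP9, was dim at 4.04 in siControl and 4.02 in siYY1, and is named after its value was seen. TIMP4 was dim too, with a difference of 0.12, and is likewise named outside the rule. The bright inhibitors of this list therefore act mostly on other protease classes.

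Proteins that carry MMP14 to the surface, hold it there or take it back formed the list with the most bright genes, 25 of 27. ITGB1, the beta1 integrin subunit that associates with MMP14 at adhesions, was at 13.89 in siControl against 14.67 in siYY1, which is a difference of 0.78. ITGAV, the alphav integrin subunit, whose precursor MMP14 can process, was at 9.81 and 10.56, a difference of 0.75. CAV1, the main protein of caveolae, a route by which MMP14 is internalised, was at 13.77 and 13.08, a difference of -0.69. The list was otherwise balanced, with 13 positive and 12 negative differences and a median of 0.02. The invadopodial actin regulator CTTN differed by -0.17 and CD44, which anchors MMP14 at the leading edge, by -0.32. In this list 2 genes were past 1.5-fold and higher and 1 was past it and lower.

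Transcription factors with known sites in MMP promoters differed in both directions. FOSL1 (FRA-1), an AP-1 subunit, was at 12.67 in siControl against 11.71 in siYY1, which is a difference of -0.96, and its partner JUND was at 8.48 and 7.55, a difference of -0.93. FOS differed by 0.38 and JUN by 0.33, neither past 1.5-fold. ETV5, a PEA3-group ETS factor, was at 10.16 and 10.75, a difference of 0.59, which median centring of the arrays brought just under the rule (0.58). Its relative ETV4 differed by 0.29 and EGR1 by 0.43. Of 19 bright factors, 13 had positive and 6 negative differences, with a median of 0.11. Over all bright genes, 4454 of 8844 differences were positive, with a median of 0.00. AP-1 members differed among themselves in direction. Of the 6 MMP and TIMP genes with a window, only MMP7 held AP-1 letters, and it was dim on both arrays. MMP1, MMP2, MMP9 and TIMP2 had no window, so AP-1 letters could not be searched there. A link between AP-1 factors and the MMP genes was not tested.

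The related ADAM, ADAMTS and astacin proteases showed small differences. Of 21 genes, 7 were bright and 6 of these had positive differences, from ADAM15 (0.09) to ADAM22 (0.24), with ADAM9 at -0.05. Over all bright genes, 4454 of 8844 differences were positive. ADAM17, the sheddase of tumour necrosis factor and EGFR ligands, differed by 0.18 and ADAM10 by 0.19. None was past 1.5-fold. Matrix and surface substrates were similar, with 11 of 26 genes bright and none of the 11 past 1.5-fold. The laminin chain gene LAMB1 differed by -0.46 and COL1A2, a chain of the type I collagen that MMP14 cleaves, by 0.45 (8.60 in siControl and 9.05 in siYY1). The adhesion protein gene CDH1, whose product is a substrate of MMP7, differed by 0.02.

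**Figure D4:**
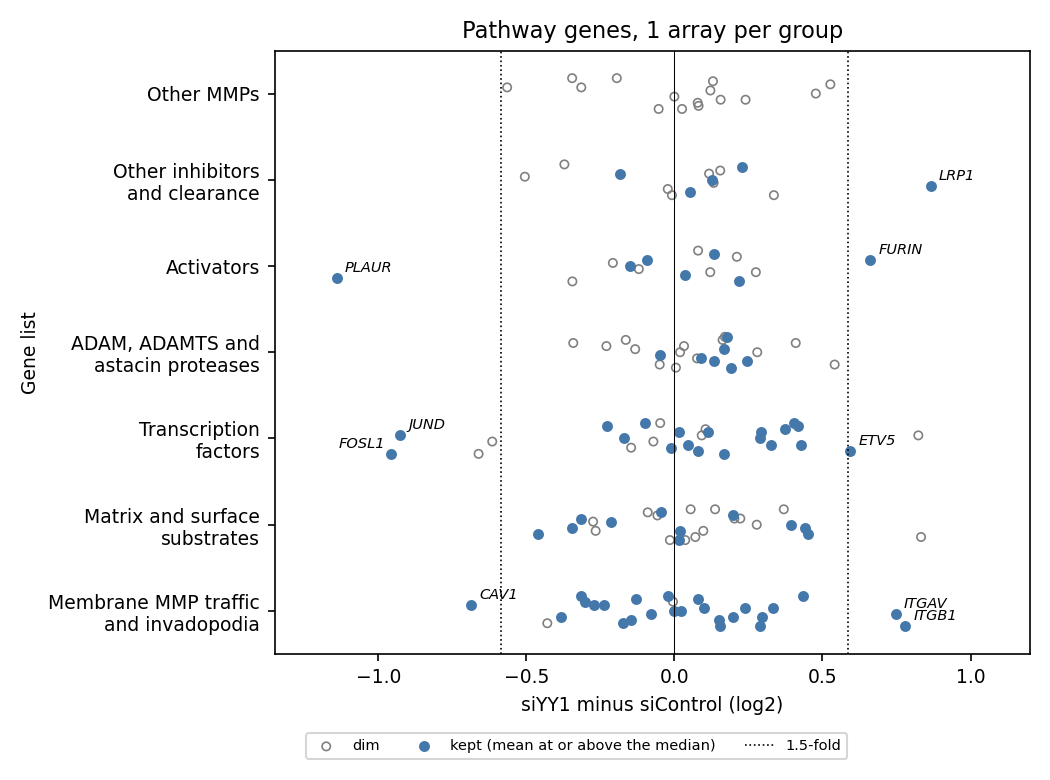
Difference between the arrays (siYY1 minus siControl, log2, horizontal axis) for each gene of 7 pathway lists (vertical axis, spread within a list for legibility), with bright genes filled, dim genes open and dotted lines at 1.5-fold. LRP1, FURIN, ETV5, ITGAV and ITGB1 lie to the right of the dotted lines among bright genes, and PLAUR, FOSL1, JUND and CAV1 to the left.

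Of 14 colon epithelial markers with a row, 11 were bright, among them EPCAM (16.04 in siControl and 16.24 in siYY1) and CDX2 (11.91 and 12.06). The 3 dim ones were VIL1 (6.04 in siControl and 5.68 in siYY1), CDX1 (4.12 and 3.73) and LGALS4 (4.11 and 4.66). Of the 11, 3 were more than 1.5-fold lower in siYY1, namely TSPAN8 (-1.75), CLDN4 (-1.50) and CEACAM5 (-1.38). Of all bright genes, 3.78% were past 1.5-fold and lower. This marker list was also chosen with earlier results of these data known. Of 13 fibroblast and muscle markers 2 were bright (COL1A2 and ACTA2), of 15 leukocyte markers 2 (CD68 and CD79A) and of 8 endothelial markers none. Both bright fibroblast and muscle markers had positive differences, COL1A2 of 0.45 and ACTA2 of 0.03 (10.58 in siControl and 10.61 in siYY1), while of the 11 dim ones 4 were positive and 7 negative. Over the whole list, the lowest and highest values were 3.55 and 10.58 in siControl (median 4.97), and 3.45 and 10.61 in siYY1 (median 4.70). The part of these markers in the difference of MMP14 was not tested. In bulk RNA, more cells expressing a gene and more RNA per cell cannot be told apart.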

How the data were processed

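RNA from 1 siControl and 1 siYY1 culture was measured on whole-transcript GeneChips, with groups read from the titles. The deposited table holds 1 summarized value per probe set, used as log2, a scale read from the range of the values (2.46 to 17.90 in siControl, 2.32 to 17.97 in siYY1). Every fold depends on it. The sources used here do not give how the authors corrected and normalized these log2 values. The ranked values of both arrays lay within 0.15 of each other, and a normalization of that kind can hide a global shift. Of 21448 probes, 17709 had 1 gene symbol in GEO's platform annotation. The other 3739, with no symbol or several, were not counted apart and were left out. Entrez identifiers matched against RefSeq GRCh38.p14 changed 0 symbols. Probes of 1 gene were averaged.

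A gene was called bright when the average of its 2 values reached the median over named genes (7.54). A rule of 1.5-fold took the place of a test, and the number of arrays limits the precision. All members are named, and so is every bright list gene past 1.5-fold. The rule for further list genes was up to 4 bright genes at each end of a list. FOS, JUN, ETV4, CTTN, ADAM15 and CDH1 were named outside that rule. NFKB1 (0.42) and ELK1 (0.40), which had larger positive differences than FOS, were left out. Other genes that the rule would allow were left out too. Among them were RAB14 (0.43), RAB27A (0.33) and VAMP7 (-0.38) of the traffic list, and COL6A1 (0.44), LAMC1 (0.39) and SDC4 (-0.34) of the substrates. Members, lists and motifs were chosen with earlier results of these data known. Alternatives were other filters (none, the 75th percentile, both arrays bright), a lower and a higher (2-fold) rule, quantile normalization, median or lowess centring (fraction 0.3), the brightest probe and other thresholds of dimness. The steps were tested on simulated data. Python 3.11.15, numpy 2.4.6, pandas 2.3.3, statsmodels 0.14.6 and matplotlib 3.10.9 were used.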

Additional observations from a re-analysis of the deposited data

How the results depend on the processing

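The difference of MMP14 ranged from 1.08 to 1.12 over the alternatives and was past the fold rule in each, 2-fold included, but under the stricter filter, where its difference stays 1.09, it is no longer counted as bright. The count of bright members past the rule and higher was 3 with no filter, which lets in MMP1 and TIMP3, and 0 with the stricter filter, which leaves TIMP1 as the single member. Under the alternative normalizations MMP1 ranged down to 0.88 and TIMP3 to 0.54, the latter under the rule. With the dim threshold at the 25th percentile 8 members were bright on both arrays, and with the 75th percentile 1 was. For the pathway lists, the bright genes higher numbered 1 with the stricter filter, 15 with the lower fold rule and 0 at 2-fold, and those lower 7 with the lower fold rule and 1 at 2-fold. These shifts follow from the thresholds themselves. No paired analysis was possible because each group has 1 array. The values of the 6 dim members were not shown to be above background, which limits every statement on them.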
